A study of Canis lupus familiaris with 27 samples.

Results

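The genes described here are 10 macrophage and myeloid receptor genes, TREM1, CD300LF, AIF1, CD68, CD163, CD14, CSF1R, MS4A7, ITGB1BP1 and TYROBP, as measured in 27 canine mammary carcinomas. They were found on the array by their symbols: 18 probe sets of the 42860 tested carry exactly 1 of these symbols, and the 10 genes stand among 15115 genes that could be named. TREM1, AIF1, CD14, MS4A7 and TYROBP have 1 probe set each, CD68, CSF1R and ITGB1BP1 have 2, CD300LF has 3 and CD163 has 4. The level of a gene is the log2 signal of whichever of its probe sets was brightest on average, so a difference of 1 is a doubling, and levels are not compared between genes because each probe set binds with its own strength.

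Macrophages enter carcinomas as blood monocytes or descend from resident cells, live on signals through the receptor CSF1R, and are recognized by lysosomal, scavenger and adaptor proteins that few other cells make. Myeloid cells also read their surroundings through paired receptors: activating members such as TREM1 pass their signal to the adaptor TYROBP (DAP12), which carries an ITAM motif and recruits the kinase SYK, whereas inhibitory members such as CD300LF carry ITIM motifs that recruit phosphatases. ITGB1BP1 (ICAP-1) differs from the others, since it is a widely made intracellular protein that binds the tail of the integrin β1 chain and the vascular protein KRIT1.

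Each tumor was a simple mammary carcinoma of a dog (Canis lupus familiaris), hybridized to 1 Affymetrix Canine Genome 2.0 array after dissection for tissue rich in carcinoma cells. The metastatic group held 13 tumors with lymph node metastases at surgery, 7 of grade III and 6 of grade II, 0.5 to 5 cm in size (median 3 cm), from dogs of 9 to 16 years. The non-metastatic group held 14 tumors with negative lymph nodes, 9 of grade III and 5 of grade II by the sample labels, 2 to 15 cm in size (median 3.5 cm), from dogs of 9 to 15 years. The methods chose the second group to be large and of high grade, so size and lymph node status are partly confounded by selection. Non-metastatic tumor 12 came from the dog that the series' text singles out for lung metastases after surgery. Tumors are numbered in the order of their records.

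The arrays were not alike in every respect. The upper quartile of an array lay between 7.88 and 8.00 in metastatic and between 7.52 and 7.92 in non-metastatic tumors, and the 3′ minus 5′ difference of the GAPDH controls, a sign of RNA quality, was 1.20 to 2.24 (median 1.93) in metastatic and 0.75 to 2.29 (median 1.28) in non-metastatic tumors on the log2 scale. It was thus larger in most metastatic tumors, the non-metastatic maximum being that of tumor 12, and its part in the results was not tested. Names ending in the letter T were given to 11 of 13 metastatic and to 0 of 14 non-metastatic tumors, and the meaning of that letter is not given in the sources used here. Over all tumors the mean levels of 9 epithelial genes ran from 7.17 (CDH1) to 13.6 (EPCAM, an adhesion protein of carcinoma cells). Since levels are not comparable between genes, they do not measure how much carcinoma a sample held. The mean level of the 9 genes was 7.88 to 12.0 in metastatic and 5.49 to 11.3 in non-metastatic tumors. Precision is limited by the number of arrays. Since whole tissue was measured, fewer cells of a type and less RNA per cell cannot be told apart.

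The first question was whether the 10 genes differed by lymph node status. TREM1, CD300LF, ITGB1BP1 and AIF1 were higher in metastatic tumors, that is 4 of the 10 genes, and 0 were lower (limma, adjusted p under 0.05 over all probe sets). Over all 15115 genes 19.2% passed by the same rule, 11.3% higher and 7.9% lower. The remaining 6 genes, CD163, CD14, MS4A7, TYROBP, CD68 and CSF1R, did not pass the test. The median difference of the 10 genes was 0.81 on the log2 scale, beside −0.0019 for all genes. Over the genes brighter than the median probe set, as all 10 are, the median was 0.18. TREM1, CD300LF and ITGB1BP1 are in lists of differing genes that the study drew from these same tumors, so their direction is not independent evidence.

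TREM1 had a log2 level of 2.69 at the lowest, 5.17 at the median and 8.30 at the highest in the 13 metastatic tumors, against 2.47, 2.85 and 5.59 in the 14 non-metastatic tumors. In the non-metastatic group nearly all tumors sat together at the dim end of the array, and only tumors 4 (5.59) and 12 (5.32) stood clear of it. A level above 3.66, the median of all deposited values, was reached in 10 of 13 metastatic and in 2 of 14 non-metastatic tumors. The groups overlapped, since the 3 metastatic tumors below that level lay within the non-metastatic range. TREM1 averaged 5.00 ± 1.55 in metastatic and 3.15 ± 1.00 in non-metastatic tumors (SD, n = 13 and 14), a difference of 1.85 on the log2 scale (standard error 0.49, 95% interval 0.85 to 2.85, limma adjusted p = 0.0106).

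CD300LF showed the same layout. Its log2 level was 2.37 at the lowest, 4.89 at the median and 8.51 at the highest in metastatic tumors, against 2.27, 2.91 and 6.34 in non-metastatic tumors. Again 10 of 13 metastatic and 2 of 14 non-metastatic tumors lay above 3.66, and the non-metastatic pair was once more tumors 4 (4.23) and 12 (6.34). CD300LF averaged 5.03 ± 1.77 in metastatic and 3.10 ± 1.04 in non-metastatic tumors (SD, n = 13 and 14), a difference of 1.93 (standard error 0.54, 95% interval 0.81 to 3.04, adjusted p = 0.0155). The activating and the inhibitory receptor thus differed in the same direction.

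ITGB1BP1 differed by less but with a narrower spread. Its log2 level was 9.45 at the lowest, 10.5 at the median and 11.3 at the highest in metastatic tumors, against 8.85, 9.62 and 10.7 in non-metastatic tumors. Of the metastatic tumors 12 of 13 lay above the non-metastatic median, and non-metastatic tumor 4 (10.75) lay among the metastatic ones. ITGB1BP1 averaged 10.5 ± 0.54 in metastatic and 9.60 ± 0.43 in non-metastatic tumors (SD, n = 13 and 14), a difference of 0.91 (standard error 0.18, 95% interval 0.54 to 1.29, adjusted p = 0.00175). Its second probe set gave 0.90 (adjusted p = 0.000174).

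AIF1 (IBA1), an actin-binding protein of macrophages and microglia, passed the test by a small margin. Its log2 level was 8.11 at the lowest, 8.96 at the median and 10.3 at the highest in metastatic tumors, against 6.07, 8.31 and 10.4 in non-metastatic tumors. Although 12 of 13 metastatic tumors lay above the non-metastatic median, the highest tumor of all was non-metastatic tumor 12. AIF1 averaged 9.04 ± 0.64 in metastatic and 8.07 ± 1.14 in non-metastatic tumors (SD, n = 13 and 14), a difference of 0.97 (standard error 0.35, 95% interval 0.25 to 1.70, adjusted p = 0.0497). The call was lost when any 1 of 18 tumors was left out, with adjusted p between 0.0514 and 0.0822. It was also lost under the one-way ANOVA of the methods (adjusted p = 0.0521) and with grade (0.0573) or age (0.0731) in the limma model. With the mean of probe sets per gene the difference stayed at 0.97, since AIF1 has 1 probe set. Adjusting over genes instead of probe sets gave a limma adjusted p of 0.054.

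**Figure D1:**
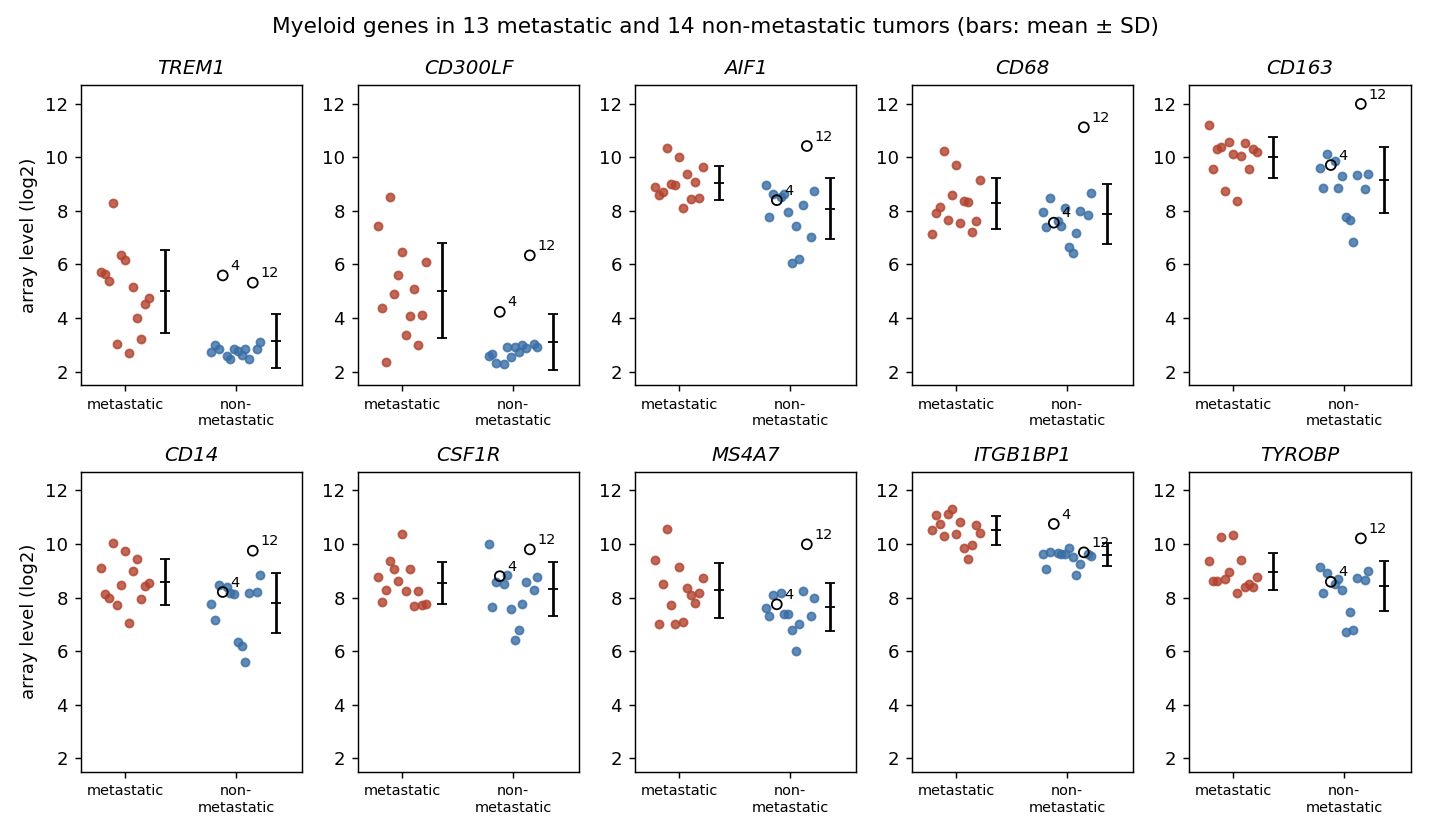
Log2 array level of each of the 10 genes (vertical axis) in every metastatic tumor (left, n = 13) and every non-metastatic tumor (right, n = 14), 1 point per tumor, with the mean and SD as a bar beside the points. Open circles are non-metastatic tumors 4 and 12, which stand above the other non-metastatic tumors in TREM1 and CD300LF.

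Among the 6 genes that did not pass, the scavenger and pattern receptors had the larger differences. CD163, the receptor for haemoglobin bound to haptoglobin, had log2 levels of 8.38, 10.2 and 11.2 (lowest, median, highest) in metastatic tumors, against 6.85, 9.30 and 12.0 in non-metastatic tumors, a difference of 0.85 (95% interval 0.04 to 1.65, adjusted p = 0.116). CD14, the co-receptor for bacterial lipopolysaccharide, had 7.04, 8.48 and 10.0 in metastatic tumors, against 5.59, 8.16 and 9.75 in non-metastatic tumors, a difference of 0.77 (95% interval −0.012 to 1.54, adjusted p = 0.139). In both genes the non-metastatic tumors reached further down than the metastatic ones. Without non-metastatic tumor 12 the difference of CD163 was 1.06 and passed the test (adjusted p = 0.0267).

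The other 4 genes overlapped more. MS4A7, a membrane protein of macrophages with several spans, had log2 levels of 7.02, 8.16 and 10.6 in metastatic tumors, against 6.01, 7.50 and 9.99 in non-metastatic tumors, a difference of 0.63 (95% interval −0.12 to 1.38, adjusted p = 0.203). TYROBP, the adaptor that TREM1 signals through, had 8.17, 8.68 and 10.3 in metastatic tumors, against 6.72, 8.62 and 10.2 in non-metastatic tumors, a difference of 0.54 (95% interval −0.10 to 1.18, adjusted p = 0.201). The medians of TYROBP nearly coincided, and it was the low end that differed.

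CD68, a glycoprotein of lysosomes, had log2 levels of 7.12, 8.16 and 10.3 in metastatic tumors, against 6.42, 7.74 and 11.1 in non-metastatic tumors, a difference of 0.39 (95% interval −0.42 to 1.20, adjusted p = 0.469). CSF1R, the receptor for the growth factors CSF1 and IL34, had 7.68, 8.29 and 10.4 in metastatic tumors, against 6.43, 8.53 and 10.0 in non-metastatic tumors, a difference of 0.23 (95% interval −0.48 to 0.93, adjusted p = 0.643). Of the metastatic tumors 6 of 13 lay above the non-metastatic median of CSF1R, the smallest such count among the 10 genes.

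**Figure D2:**
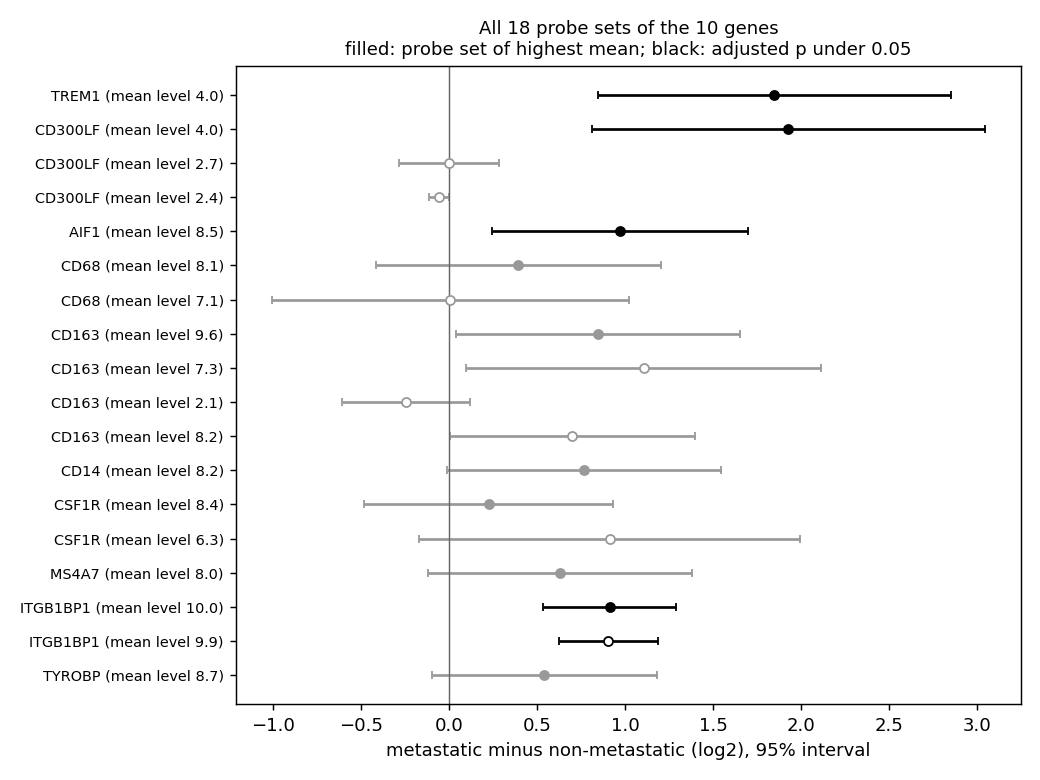
Metastatic minus non-metastatic difference (log2) with its 95% interval from limma for all 18 probe sets of the 10 genes, filled where the probe set is the one of highest mean and black where the adjusted p is under 0.05. The 5 black points (5 of 18 probe sets, beside 9.76% of all probe sets called higher) belong to TREM1, CD300LF, AIF1 and both probe sets of ITGB1BP1.

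The additional probe sets followed the main one where both were bright. Over the 27 tumors, with group means subtracted, the correlation of the main with another probe set was 0.944 and 0.957 for CD163, 0.931 for CSF1R, 0.862 for CD68 and 0.783 for ITGB1BP1. The second CSF1R probe set differed by 0.91 between the groups (adjusted p = 0.203) and the second CD68 probe set by 0.0099 (adjusted p = 0.990). The fourth CD163 probe set, at a mean level of 2.08, and the pair of further CD300LF probe sets, at 2.68 and 2.38, lay at the dim end of the array, with correlations of 0.575, 0.491 and 0.138 with the main ones. The CD300LF difference thus rests on 1 of its 3 probe sets, the others giving 0.0012 and −0.054.

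Single tumors were high or low in most macrophage genes at once. Over AIF1, CD68, CD163, CD14, CSF1R, MS4A7 and TYROBP, non-metastatic tumor 12 ranked among the 3 highest of the 27 tumors in 7 of 7 genes, with AIF1 at 10.42, CD68 at 11.12 and CD163 at 11.99 as the highest of all. Its level of PTPRC (CD45), the general leukocyte gene, was also the highest (11.38), but its ITGB1BP1 level of 9.69 ranked 16 of 27. The same tumor had the lowest mean level of the epithelial genes (5.49, the next tumor 7.88), so its carcinoma markers were on average the lowest of the 27 tumors. Its mean level of the neutrophil genes was also the lowest (4.27, the next 4.89). Many genes of that list were dim, so this mean does not show how many neutrophils the tumor held. Metastatic tumors 4 and 7 were each among the 3 highest in 5 of the 7 genes, and metastatic tumor 4 had the highest TREM1 (8.30) and CD300LF (8.51) levels. At the other end, non-metastatic tumors 8, 9 and 10 were among the 3 lowest in 7, 6 and 5 of the 7 genes, with TYROBP at 6.72, 7.46 and 6.78. PTPRC was 11.09 and 10.29 in metastatic tumors 4 and 7 (ranks 2 and 4 of 27). In non-metastatic tumors 8, 9 and 10 it was 6.42, 6.74 and 8.34 (ranks 27, 26 and 17). The pattern of these tumors is thus not shown to be particular to macrophage genes.

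The second question was whether the genes varied together from tumor to tumor. With the mean of each lymph node group subtracted, 35 of the 45 pairs of genes were correlated over the 27 tumors (Pearson r, 100000 permutations within groups, Benjamini-Hochberg adjustment over 45 pairs), and 22 by Spearman's rho. The 7 macrophage genes formed 1 block, TREM1 and CD300LF were joined to it more loosely, and ITGB1BP1 stood outside. All points of such a correlation share the scaling of their array. Pairs of other genes were not counted by the same rule. Whether the counts given here and for the block below exceed those of other genes was therefore not tested. They do not show that varying together is particular to these genes.

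Within the block of 7 genes, 21 of 21 pairs passed by Pearson's r, which lay between 0.515 and 0.907 with a median of 0.764, and 20 of 21 by Spearman's rho. AIF1 and TYROBP had the highest value (r = 0.907, rho = 0.863, permutation adjusted p = 6.43e-05 for r), followed by CD14 and TYROBP (r = 0.884, rho = 0.696) and CSF1R and TYROBP (r = 0.859, rho = 0.847). TYROBP was therefore in each of the 3 closest pairs. The lowest pair was CD163 and CSF1R (r = 0.515, rho = 0.343), where rho did not pass (adjusted p = 0.139). With the 2 tumors farthest from the median of the first gene left out, r in the block was 0.42 to 0.847.

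The r values of the block reached lower among metastatic tumors. They ran between 0.0307 and 0.869 in the 13 metastatic tumors and between 0.693 and 0.931 in the 14 non-metastatic tumors. The gap was wide for CD163, whose r with CSF1R was 0.0307 in metastatic and 0.739 in non-metastatic tumors, and with AIF1 0.287 in metastatic and 0.908 in non-metastatic tumors. AIF1 and TYROBP stayed close in both (0.869 in metastatic and 0.931 in non-metastatic tumors). Whether the correlations differ between the groups was not tested. The genes of the block, MS4A7 excepted, also spread wider in non-metastatic tumors. The SD of AIF1 was 1.14 there against 0.64 in metastatic tumors, and that of CD163 1.235 against 0.768. The part of this spread in the r values was not tested.

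**Figure D3:**
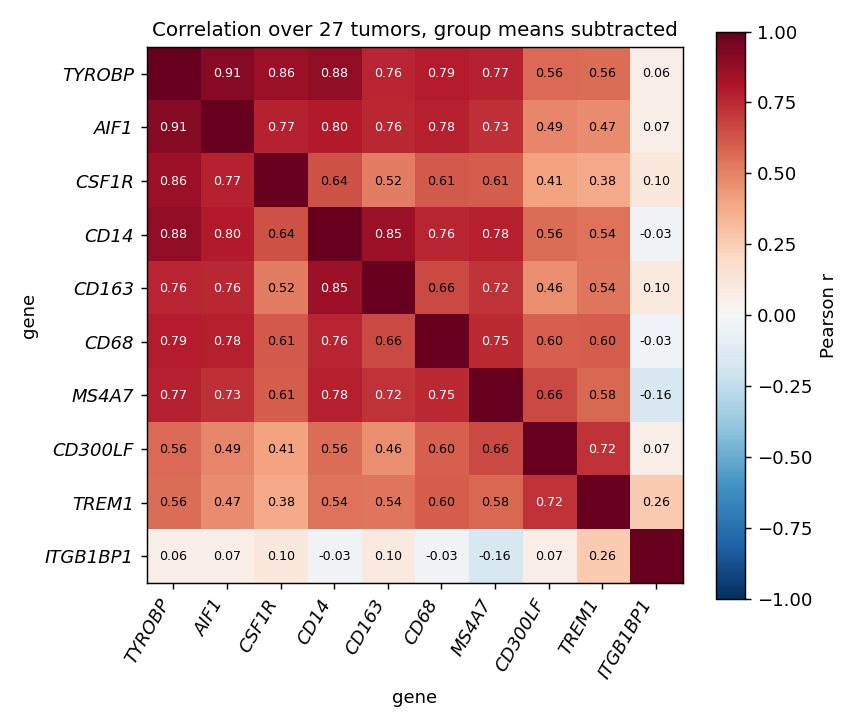
Pearson r between each pair of the 10 genes (rows and columns) over 27 tumors after subtracting the mean of each lymph node group, on a color scale between −1 and 1. The 7 macrophage genes at the upper left have r of 0.515 to 0.907, and ITGB1BP1 in the last row has r of −0.161 to 0.263.

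TREM1 and CD300LF varied together (r = 0.719, rho = 0.548, permutation adjusted p = 0.000582 and 0.0131, and r = 0.607 without the 2 farthest tumors). In metastatic tumors their r was 0.664 and rho 0.61. In non-metastatic tumors r was 0.854 but rho 0.49, and tumors 4 and 12 were the only ones with high levels of either gene. With the 7 macrophage genes, TREM1 had r between 0.382 and 0.602, passing with 6 of 7, and CD300LF had r between 0.405 and 0.659, passing with 7 of 7. By Spearman's rho these counts were 1 and 0. In the 13 metastatic tumors alone, where the receptors spread over a wide range, the r with TYROBP was 0.776 for TREM1 (rho 0.764) and 0.733 for CD300LF (rho 0.654), against 0.414 (rho 0.0813) and 0.47 (rho 0.0681) in non-metastatic tumors.

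ITGB1BP1 was correlated with 0 of the other 9 genes, by r or by rho, with r between −0.161 (MS4A7) and 0.263 (TREM1) and permutation adjusted p between 0.266 and 0.872. Its r values ran between −0.497 and 0.0761 in metastatic tumors and between 0.0772 and 0.602 in non-metastatic tumors. Whether they differ between the groups was not tested. Non-metastatic tumor 12 weighed on the counts: without it 29 pairs passed by Pearson's r and 18 by Spearman's rho. Over all tumors left out in turn the counts were 29 to 36 and 18 to 23.

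**Figure D4:**
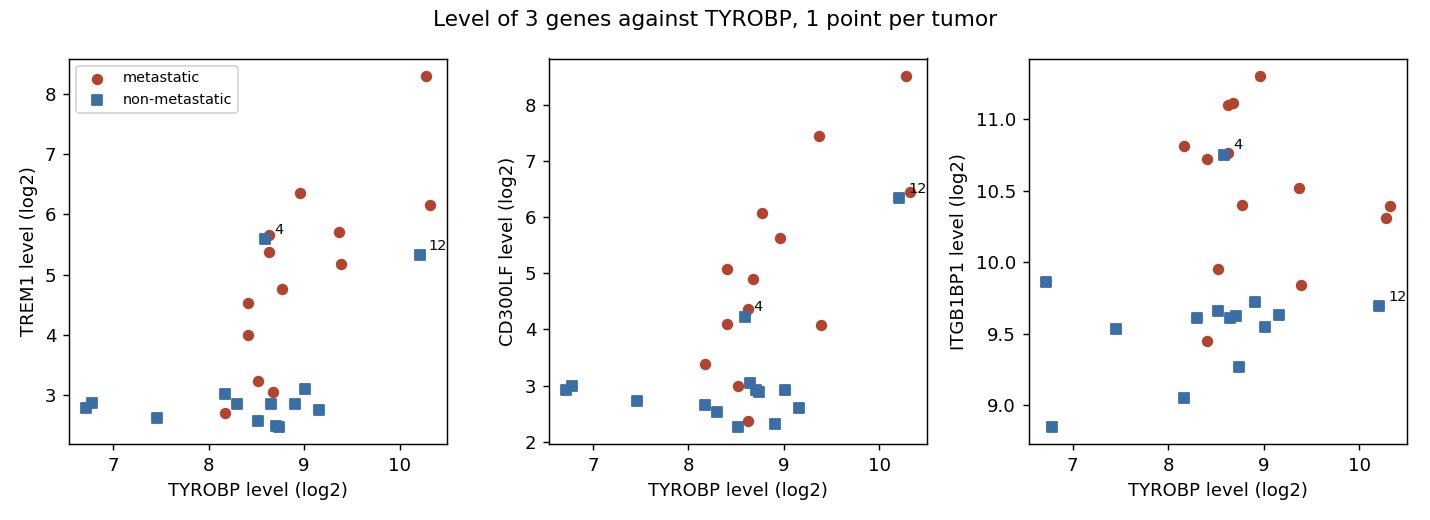
Log2 level of TREM1, CD300LF and ITGB1BP1 (vertical axes) against that of TYROBP (horizontal axes), 1 point per tumor, circles for 13 metastatic and squares for 14 non-metastatic tumors, with non-metastatic tumors 4 and 12 numbered. Apart from tumors 4 and 12, the non-metastatic tumors stay near 3 in TREM1 and CD300LF, at TYROBP levels of up to 9.16.

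The genes whose pattern was most like each of the 10, by Pearson's r over the 27 tumors with group means subtracted and among 15114 other genes, are given here by name. For TYROBP they included LOC478984 (r = 0.907), AIF1, CYBB (0.888), the catalytic chain of the phagocyte oxidase, and DLA-DRA (0.885), a class II histocompatibility chain. CD14 was closest to EVI2B (0.900), CSF1R to LAPTM5 (0.887), a lysosomal protein of blood cells, CD68 to AOAH (0.873), an enzyme that inactivates lipopolysaccharide, and MS4A7 to LOC484897 (0.874). CD163 was closest to CD14 (0.852) and VSIG4 (0.836), a complement receptor of macrophages.

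The neighbors of TREM1 and CD300LF overlapped in CDA, cytidine deaminase, with r of 0.775 and 0.858. TREM1 was closest to MCEMP1 (0.783), a membrane protein of mast cells and monocytes, and CD300LF to LOC489640 (0.874). Around ITGB1BP1 stood SUPT3H (0.824), a subunit of a transcription coactivator, RBL1 (0.818), a relative of the retinoblastoma protein, PAFAH1B1 (0.802), a regulator of dynein, VKORC1L1 (0.776) and BCL7C (0.772). These r values describe likeness only and were not tested. Without non-metastatic tumor 12 the order shifted in places: MCEMP1 ranked 2 for TREM1, AOAH 2 for CD68 and VSIG4 7 for CD163, with r of 0.753, 0.797 and 0.759.

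The third question concerned histological grade, with lymph node status kept in the model. None of the 10 genes differed between grade III and grade II tumors (0 of 10 by limma, 0 also at an unadjusted p under 0.05), and over all 15115 genes 0% were called and 5.85% had an unadjusted p under 0.05. TREM1 had the largest difference. Its log2 level was 3.23, 5.38 and 8.30 (lowest, median, highest) in 7 metastatic grade III tumors and 2.69, 4.38 and 6.36 in 6 metastatic grade II tumors. In non-metastatic tumors it was 2.61, 2.86 and 5.59 in 9 of grade III and 2.47, 2.57 and 2.86 in 5 of grade II. The difference was 0.94 (95% interval −0.035 to 1.91, unadjusted p = 0.058, adjusted p = 0.781 by limma).

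Tumors 4 and 12, the non-metastatic tumors with high TREM1 and CD300LF, were both of grade III. The other 9 genes had grade differences between −0.23 (CSF1R) and 0.29 (CD68), with intervals that all covered 0. For CD300LF the difference was −0.09 (95% interval −1.25 to 1.08) and for ITGB1BP1 −0.05 (−0.44 to 0.35). The lymph node difference was not shown to depend on grade: the interaction passed in 0 of 10 genes (0% of all genes, 0 of 10 also at an unadjusted p under 0.05, beside 2.66% of all genes), with the widest estimates at −1.27 for CD300LF (95% interval −3.59 to 1.05) and 1.17 for CSF1R (−0.24 to 2.58). For CD300LF the mean levels in grade III were 4.69 in metastatic and 3.30 in non-metastatic tumors, and in grade II they were 5.41 in metastatic and 2.75 in non-metastatic tumors.

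The fourth question concerned tumor size. With lymph node status in the model, the slope of the log2 level per doubling of size lay between −0.17 (ITGB1BP1, 95% interval −0.39 to 0.04) and 0.31 (TREM1, −0.26 to 0.89), and 0 of 10 genes passed (limma, 0% of all genes called). At an unadjusted p under 0.05 the count was also 0 of 10, beside 7.75% of all genes. Within the groups, 0 of 20 relations of level to size passed (Pearson r −0.406 to 0.314, permutation adjusted p 0.971 to 0.994). The lowest r was that of ITGB1BP1 in metastatic tumors (rho = −0.416) and the highest that of CD68 in non-metastatic tumors (rho = 0.255). Without the 2 tumors farthest from the median size, r in non-metastatic tumors was 0.594 for AIF1 and 0.595 for CD163, with permutation adjusted p = 0.385 for both.

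**Figure D5:**
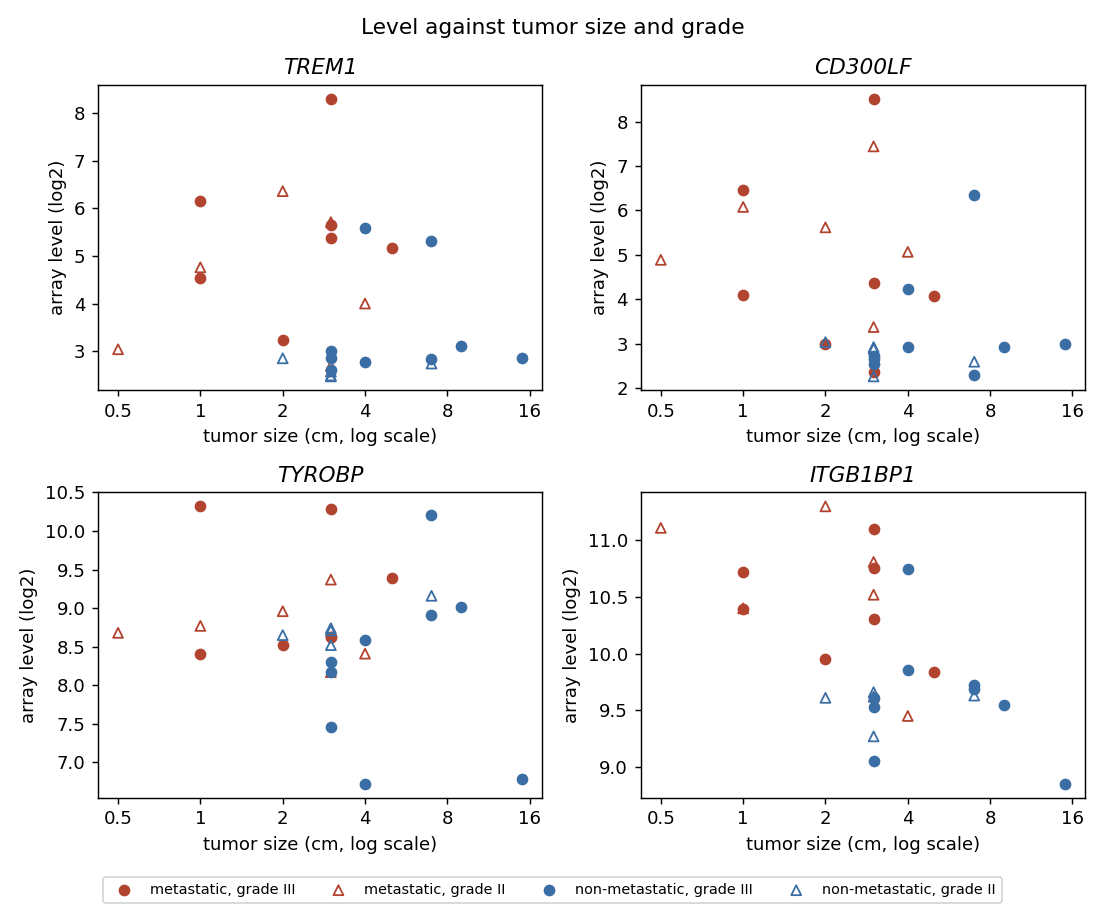
Log2 level of TREM1, CD300LF, TYROBP and ITGB1BP1 (vertical axes) against tumor size in cm on a log scale, 1 point per tumor, red for metastatic and blue for non-metastatic, filled circles for grade III and open triangles for grade II. Sizes run between 0.5 and 5 cm in metastatic and between 2 and 15 cm in non-metastatic tumors, so the groups share only part of the axis.

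Because size and status were partly confounded, the lymph node difference was also estimated with size in the model. TREM1 then differed by 2.20 (adjusted p = 0.0348), while CD300LF at 1.95 (adjusted p = 0.0952), AIF1 at 0.97 (adjusted p = 0.203) and ITGB1BP1 at 0.72 (adjusted p = 0.0566) no longer passed, and over all genes 3.29% passed in that model, against 19.2% without size. With the ending of the sample name in the model, where the metastatic side rests on 2 tumors, 0 of the 10 genes passed, but so few genes pass in that model (0.0728% of all genes) that the count says nothing about the 10. The differences were 2.54 for TREM1, 2.80 for CD300LF, 1.21 for ITGB1BP1 and 0.66 for AIF1 (limma adjusted p = 0.434, 0.439, 0.257 and 0.645). With the level of PTPRC in the model, TREM1 (1.44, adjusted p = 0.0328), CD300LF (1.48, adjusted p = 0.0461) and ITGB1BP1 passed and AIF1 (0.50, adjusted p = 0.126) did not. Over all genes 16.6% passed in that model. The PTPRC probe set used differed by 0.71 (limma adjusted p = 0.209). Its dimmer probe sets, not used as a covariate, differed by 1.21 (adjusted p = 0.0618) and 1.135 (adjusted p = 0.109).

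Other genes of the same systems were counted from lists of known roles. Of 38 further macrophage genes measured, 6 were higher and 3 lower in metastatic tumors, with a median difference of 0.24. Over all genes 11.3% were higher and 7.9% lower, and these shares stand beside every list below. At an unadjusted p under 0.05 by limma, 34.21% of the macrophage list passed, beside 34.36% of all genes. The median difference was −0.0019 over all genes and 0.18 over those brighter than the median probe set. MARCO, a scavenger receptor, averaged 5.16 ± 2.07 in metastatic and 3.19 ± 0.25 in non-metastatic tumors (SD, n = 13 and 14), a difference of 1.96 (adjusted p = 0.0145), and unlike TREM1 it had no non-metastatic tumor near the high metastatic levels. The kinase FGR (1.04), PLEK (1.04), SPI1 (0.95), the transcription factor of myeloid cells, CYBB (1.00) and CTSS (0.75) were the other 5. Lower were APOE, a lipid carrier (−1.22), and, with small differences at dim levels, ADGRE1 (−0.26) and HMOX1 (−0.081).

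Of 24 measured genes of TREM, CD300 and ITAM or ITIM signaling, 5 were higher and 1 was lower, with a median of 0.44. The shares over all genes were 11.3% higher and 7.9% lower. At an unadjusted p under 0.05 by limma, 37.5% of this list passed, beside 34.36% of all genes. PILRA, an inhibitory paired receptor, was higher by 1.34, the adaptor LAT2 by 1.26, the kinase BTK by 1.02, the phosphatase PTPN11, which ITIM motifs recruit, by 0.81, and BCL10 by 0.63. MALT1, the protease that acts with BCL10, was lower (−1.46, adjusted p = 0.00808). SYK, the kinase downstream of TYROBP, had a difference of 0.48 that did not pass (adjusted p = 0.442), and so did TREM2 at 0.64 (adjusted p = 0.228).

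Of 9 genes around CSF1R and CD14, IRAK4, a kinase of Toll-like receptor signaling, was higher by 1.16 (adjusted p = 0.000326), with 13 of 13 metastatic tumors exceeding the median of the non-metastatic ones. The ligands did not pass: CSF1 differed by 0.17 (adjusted p = 0.229), at a dim mean level of 2.76, and IL34 by −0.57 (adjusted p = 0.279). Of 14 integrins and partners of ITGB1BP1, PDCD10 (0.77), which belongs with KRIT1 to the cerebral cavernous malformation complex, NME2 (0.29) and the integrin chain ITGA4 (1.32) were higher and 0 were lower, with a median of 0.33. KRIT1 at 0.86 (adjusted p = 0.0777) and ITGB1 at 0.37 (adjusted p = 0.168) did not pass. At an unadjusted p under 0.05 by limma, 42.86% of the integrin list and 11.11% of the genes around CSF1R and CD14 passed, beside 34.36% of all genes.

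Markers of other cells that a tumor can hold were read beside these results. Over all genes 34.36% had an unadjusted p under 0.05 for lymph node status, which is the share to set the following counts against. TREM1 is also made by neutrophils, and of 12 neutrophil genes 0 passed in either direction (limma, 0 also at an unadjusted p under 0.05). Their mean level was 4.89 to 6.86 in metastatic and 4.27 to 6.52 in non-metastatic tumors. ELANE, FPR2, CSF3R, MMP8, PADI4 and MPO had mean levels of 1.97 to 2.68, at the dim end of the array. The brightest were LTF (13.3), BPI (12.0) and S100A8 (10.6). With so many dim genes, this list cannot show whether neutrophils differed between the groups. Of 18 T and NK cell genes and 9 B and plasma cell genes 0 passed, with 1 and 3 at an unadjusted p under 0.05, and the mean T and NK cell level was 3.20 to 6.45 in metastatic and 3.02 to 7.10 in non-metastatic tumors, the highest being that of non-metastatic tumor 12. Of 8 dendritic cell, 9 epithelial and 9 fibroblast genes 0 passed (1, 2 and 3 at an unadjusted p under 0.05). The differences were nevertheless above 0 in 9 of 9 epithelial genes (median 0.46) and 9 of 9 fibroblast genes (median 0.52), both medians larger than the 0.24 of the macrophage list. The mean fibroblast level was 9.39 to 13.5 in metastatic and 7.05 to 12.6 in non-metastatic tumors.

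Of 8 smooth muscle and myoepithelial genes 4 were lower in metastatic tumors (7.9% of all genes were), with a median of −1.41: MYH11 (−3.88), CNN1 (−2.65), MYLK (−2.47) and ACTG2 (−2.14). The mean level of this list was 7.08 to 9.44 in metastatic and 7.78 to 11.5 in non-metastatic tumors. Of 8 endothelial genes PECAM1 was higher (1.00) and TEK lower (−1.02), and of 6 mast cell genes MS4A2 was lower (−0.64). The part of these cells in the differences of the 10 genes was not tested. In the grade and size models 0 genes of any list passed. Of the list genes named here, ITGA4, PDCD10, PTPN11, MYH11, MYLK, ACTG2 and CNN1 are also in lists that the study drew from these tumors, so their direction is not independent evidence.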

How the data were processed

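Biotin-labeled RNA of 27 tumors was measured on Affymetrix Canine Genome 2.0 arrays, 1 per tumor. The authors corrected background by RMA, quantile-normalized the arrays and summarized probe sets by median polish, in the gcRMA workflow of Partek Genomic Suite. The deposited values are log2 signals (0.29 to 16.61, median 3.66) and were used as they stand. No build or coordinates were used. Probe sets were named from the platform annotation: the 43035 include 175 controls, which were dropped, and of the remaining 42860 probe sets 29254 had 1 symbol, 439 several and 13167 none. For CD68 and ITGB1BP1 that annotation gives an older gene ID than RefSeq.

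Groups, grade and size came from the sample labels. The study's case list gives grade III for non-metastatic tumor 1, labeled grade II. Each tumor is 1 dog and counts as 1 replicate. Differences were fitted with limma 3.58.1 in R 4.3.3 (lmFit, eBayes) over all probe sets, two-sided, with Benjamini-Hochberg adjustment and a threshold of 0.05: lymph node status alone, grade III minus grade II and the slope on log2 size with status in the model, and the interaction of status and grade. Correlations used 100000 permutations, two-sided, within groups, in Python 3.11.15. The model and the correlations were checked on simulated data. Alternatives covered scaling, dim probe sets, the test (the one-way ANOVA of the methods included), the probe set per gene, covariates and leaving out each tumor.

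The 10 genes and all gene lists were chosen with earlier results of these data known. Of 214 list genes 171 were measured. Named are all 10 genes, PTPRC, per list up to 4 genes of smallest adjusted p in each direction past the threshold, and the 5 genes most correlated with each of the 10, of which some are given. EPCAM, CDH1, CYBB, CTSS, BTK, SYK, TREM2, CSF1, IL34, KRIT1, ITGB1 and the neutrophil genes named were added after their values were seen.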

Additional observations from a re-analysis of the deposited data

Results flagged for a closer look

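For each gene within each combination of lymph node status and grade, 40 groups in all, the gap between the highest or lowest tumor and its nearest neighbor was set against the range of the group. In 3 of them a tumor stood apart by Dixon's criterion, and chance gives about 1 such group in 20. CD300LF in non-metastatic tumor 12 was 6.34, with the next grade III non-metastatic tumor at 4.23. CD68 in the same tumor was 11.12, with the next at 8.68. ITGB1BP1 in non-metastatic tumor 11 was 9.27, the lowest of the 5 non-metastatic grade II tumors, with the next at 9.61.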

How the results depend on the processing

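No paired analysis applied, because each tumor came from a different dog. The 4 calls by lymph node status were 4 after centring each array on its median, 2 with the array's upper quartile as a covariate, 1 with tumor size and 0 with the name ending T or not. The share of all genes called fell as well, to 5.28%, 3.29% and 0.0728% in these 3 models, against 19.2% as deposited. With the upper quartile ITGB1BP1 gave 0.67 (adjusted p = 0.0921) and AIF1 0.70 (0.439), and after a second quantile normalization AIF1 gave 0.80 (0.114). TREM1, CD300LF and ITGB1BP1 kept their calls without any 1 of the 27 tumors. Over all genes, centring gave 1824 higher and 636 lower, against 1705 and 1194 as deposited.

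The direction of CD68 and CSF1R turned with the sample name ending (−0.36 and −0.0063) and with PTPRC (−0.14 and −0.13). Without lymph node status in the model the grade difference of AIF1 was −0.070, and the size slopes were −0.18 for CD14, −0.14 for CD163, −0.50 for CD300LF, −0.0071 for CSF1R, −0.068 for MS4A7, −0.27 for TREM1 and −0.14 for TYROBP, and 1 gene, ITGB1BP1, passed (−0.36, adjusted p = 0.0445), beside 4.18% of all genes in that model. Per cm the slopes of CD14, CD163 and TYROBP were −0.050, −0.039 and −0.031. The slope of AIF1 was 0.018 after a second quantile normalization, and that of CD68 −0.089 with the probe set of largest SD. The cause was not tested. Spearman pairs that passed were 34 with no group means subtracted. List genes higher in metastatic tumors were 16 of 171, and 9 after a second quantile normalization. Over all genes the share called higher fell as well, from 11.3% to 6.65%.

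With each tumor left out in turn, grade differences ran from −0.11 to 0.16 for AIF1, −0.22 to 0.063 for CD14, −0.23 to 0.082 for CD163, −0.37 to 0.14 for CD300LF, −0.15 to 0.025 for ITGB1BP1 and −0.15 to 0.066 for TYROBP, and size slopes from −0.090 to 0.21 for AIF1, −0.077 to 0.29 for CD14, −0.013 to 0.41 for CD163, −0.10 to 0.10 for CD300LF and −0.057 to 0.19 for TYROBP. Dim signal limits TREM1 and CD300LF, which lay below the median of all values in 12 of 14 non-metastatic tumors.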
